A study of Homo sapiens with 14 samples.

Results

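Expression of 10 genes for cell-surface adhesion receptors, CD44, TM4SF1 and the integrin subunits ITGA2, ITGA3, ITGA5, ITGA6, ITGAV, ITGB1, ITGB3 and ITGB4, was examined in cisplatin-resistant ovarian cancer cells. They are 10 of the 62757 genes counted, and all 10 were found by Ensembl identifier. They were chosen from measured values: CD44 and TM4SF1 were abundant in parental OVCAR3 and had no count in either library labelled OVCAR3-DDP, and the integrin subunits were taken as receptors of the same kind. The difference between those groups is therefore described and not tested.

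The 14 RNA sequencing libraries form 7 groups of 2 and come from OVCAR3 and A2780, established cell lines of human ovarian cancer. Parental cells have the genotype label WT, and DDP, an abbreviation of cisplatin, marks the resistant derivative of each line. The other groups are OVCAR3-DDP cells with a short hairpin RNA, which lowers a chosen transcript by RNA interference: sh1 and sh2, labelled as hairpins against ADAR1, and shNC, which serves as their control. ADAR1 is an enzyme that edits adenosine to inosine in double-stranded RNA. All hairpin groups thus carry the DDP label as well as a hairpin, and no hairpin group was made in parental OVCAR3 or in A2780. The labels give neither the cisplatin dose and exposure nor whether a derivative is a single clone.

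CD44 is the main receptor for hyaluronan, a sugar polymer of the extracellular matrix. TM4SF1 is a small membrane protein of the L6 family, which resembles the tetraspanins and gathers with integrins at the cell surface. Integrins are dimers of an alpha and a beta subunit that hold cells to matrix proteins and pass signals inward. ITGB1 pairs with most of the alpha subunits considered here, ITGB4 pairs with ITGA6 in the laminin-binding anchor called the hemidesmosome, and ITGAV pairs with several beta subunits to bind proteins such as vitronectin and fibronectin. In ovarian carcinoma these receptors are studied for the attachment of tumour cells to the mesothelial lining of the abdomen.

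The genes lie on 7 chromosomes in the GENCODE 29 annotation of GRCh38, and all are protein coding. CD44 (ENSG00000026508.21) spans chr11:35138870-35232402 on the plus strand and TM4SF1 (ENSG00000169908.12) chr3:149369022-149377865 on the minus strand. ITGB1 (ENSG00000150093.20) spans chr10:32900319-33005792 on the minus strand, ITGA5 (ENSG00000161638.11) chr12:54395261-54419460 on the minus strand and ITGA2 (ENSG00000164171.11) chr5:52989326-53094779 on the plus strand. ITGA6 (ENSG00000091409.16) at chr2:172427354-172506282 and ITGAV (ENSG00000138448.13) at chr2:186590065-186680901 share a chromosome and the plus strand. ITGA3 (ENSG00000005884.18) at chr17:50055968-50090481, ITGB3 (ENSG00000259207.10) at chr17:47253846-47311816 and ITGB4 (ENSG00000132470.14) at chr17:75721328-75757818 also lie on 1 chromosome, on the plus strand, and are megabases apart.

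Promoter sequence was compared because these genes are low together in the libraries labelled OVCAR3-DDP. RefSeq windows of the 250 bases before the start (GRCh38.p14) were found for 7 of the 10 genes, all but ITGA3, ITGB3 and ITGB4. The windows of ITGA2 and ITGB1 are shown up to the first base that GENCODE 29 places in an exon of the gene, ITGA2 at chr5:52989102-52989325 on the plus strand and ITGB1 at chr10:32958233-32958480 on the minus strand, in an intron of its longer transcripts. For CD44 and TM4SF1, whose windows lie wholly or mostly in exons of longer transcripts, 30 bases around the matched letters are shown, CD44 at chr11:35138997-35139026 on the plus strand and TM4SF1 at chr3:149377758-149377787 on the minus strand. Capitals mark GGGCGG, the GC box bound by SP1, and GGAATG, the core bound by TEAD factors, on either strand. The 2 motifs do not overlap in these sequences. A further GGAATG in the TM4SF1 window and a further GGGCGG in the ITGA2 window lie outside the letters shown.
CD44: cacgGGGCGGgggcagaggggcCCGCCCgg
TM4SF1: cgtctgaaGGGCGGgaCATTCCccctgcct
ITGA2: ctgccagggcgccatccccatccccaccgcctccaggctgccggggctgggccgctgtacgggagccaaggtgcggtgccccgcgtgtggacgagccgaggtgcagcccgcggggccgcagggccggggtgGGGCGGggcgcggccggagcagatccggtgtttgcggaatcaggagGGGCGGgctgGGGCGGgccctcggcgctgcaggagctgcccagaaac
ITGB1: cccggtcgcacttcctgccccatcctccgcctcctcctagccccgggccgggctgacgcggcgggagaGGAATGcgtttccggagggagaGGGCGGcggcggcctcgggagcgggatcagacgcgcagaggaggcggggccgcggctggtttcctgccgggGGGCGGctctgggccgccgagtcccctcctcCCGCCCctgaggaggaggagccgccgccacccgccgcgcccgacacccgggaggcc
The 4 windows differ most in CG dinucleotides, the sites of DNA methylation: 15 in the 250 bases of CD44, 4 in TM4SF1, 26 in ITGA2 and 32 in ITGB1 (4 in a second ITGB1 window, not shown), beside a median of 11 over 35114 windows of the same length. GGGCGG occurs in 42.6% and GGAATG in 11.9% of all such windows, so a match is common and describes only the letters. TGANTCA, the AP-1 motif, was found in none of the windows of the 7 genes and in 6.57% of all windows.

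Sequencing depth was 20428538 to 49115255 counts assigned to genes per library, and levels are given in counts-per-million units (CPM) of that total, as mean ± SD with n = 2 where a mean is given. ADAR, which encodes ADAR1, was at 447 and 399 CPM in shNC, 289 and 254 CPM in sh1, and 116 and 114 CPM in sh2. Of 10 markers of ovarian carcinoma epithelium, 8 were at 1 CPM or more in parental OVCAR3 (summed level 3847 to 4216 CPM) and in each hairpin group, but 4 in the libraries labelled OVCAR3-DDP (539 to 575 CPM) and in both A2780 groups. The summed level of 6 neural markers was 2.68 to 2.93 CPM in parental OVCAR3, 244 to 247 CPM in both libraries labelled OVCAR3-DDP and 8.99 to 9.74 CPM in shNC. In A2780 it was 13.6 to 14.3 CPM in parental and 145 to 191 CPM in DDP cells, where NEFM, STMN2 and ELAVL4 were at 0. Of the 6, those at 1 CPM or more were 1 in parental OVCAR3, 3 in the libraries labelled OVCAR3-DDP and 4 in shNC. In parental A2780 and in A2780-DDP they were 2 each. The sums thus rest on part of the list and do not name a cell type. The shNC libraries, whose label also says OVCAR3-DDP, do not share the receptor levels of the libraries labelled OVCAR3-DDP without a hairpin, and no contrast between them is tested. The keratin gene KRT7 was at 1135 and 1030 CPM in the OVCAR3 parental group, at 965 and 1048 CPM in shNC, but at 0.376 and 0.116 CPM in both libraries labelled OVCAR3-DDP. WT1 was at 0 in the former groups and at 19.3 and 18.7 CPM in the latter. KRT7 and WT1, named after their values were seen, set the libraries labelled OVCAR3-DDP apart from shNC, which shares that label. WT1 and CDH1 are both among the 10 carcinoma markers. CDH1 was at 0.251 and 0.143 CPM in parental OVCAR3, at 0 in shNC, and at 0.203 and 0.0580 CPM with the OVCAR3-DDP label alone. Neither parental OVCAR3 nor shNC thus expressed the whole list. Whether the libraries labelled OVCAR3-DDP came from OVCAR3 cells was not tested. A value given for them, including each fold bound below, thus describes those libraries and cannot be read as an effect of resistance in OVCAR3. Hairpin libraries also had less mitochondrial messenger RNA, 0.726% to 0.947% of assigned counts against 2.31% to 3.51% without a hairpin, and the part of these differences in the results was not tested. Whether replicates came from separate cultures is not in the labels, and a p-value here reflects the spread between the samples alone, which may be technical. Reads without molecular identifiers are not independent molecules, so bounds and intervals cover counting error only.

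CD44 separated the 7 groups into expressing and non-expressing ones. It was at 575 and 553 CPM in parental OVCAR3, while each library labelled OVCAR3-DDP had 0 counts. With shNC it was at 873 and 902 CPM, with sh1 at 743 and 819 CPM, and with sh2 at 807 and 783 CPM. Every hairpin library thus lay above both parental OVCAR3 libraries, and sh1 and sh2 overlapped each other. A2780 had almost none: 1 count over the parental libraries and 7 over the A2780-DDP libraries. With a floor of 3 counts over a group at 0, CD44 was at least 12975-fold lower in the libraries labelled OVCAR3-DDP than in parental OVCAR3 and at least 20415-fold lower than in shNC. In bulk RNA, fewer cells that express a gene and less RNA per cell cannot be told apart.

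TM4SF1 gave a different order, in that A2780 expressed it. It was at 686 and 644 CPM in parental OVCAR3 and at 403 and 408 CPM in parental A2780, and it had 0 counts in the libraries labelled OVCAR3-DDP. In A2780-DDP it was at 4.14 and 3.78 CPM. Both groups labelled DDP without a hairpin thus lay below the parental group of the same line name, with no overlap. The hairpin libraries were highest, at 982 and 1018 CPM with shNC, 873 and 928 CPM with sh1, and 1054 and 1005 CPM with sh2. Against the floor, TM4SF1 was at least 15292-fold lower in the libraries labelled OVCAR3-DDP than in parental OVCAR3.

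**Figure D1:**
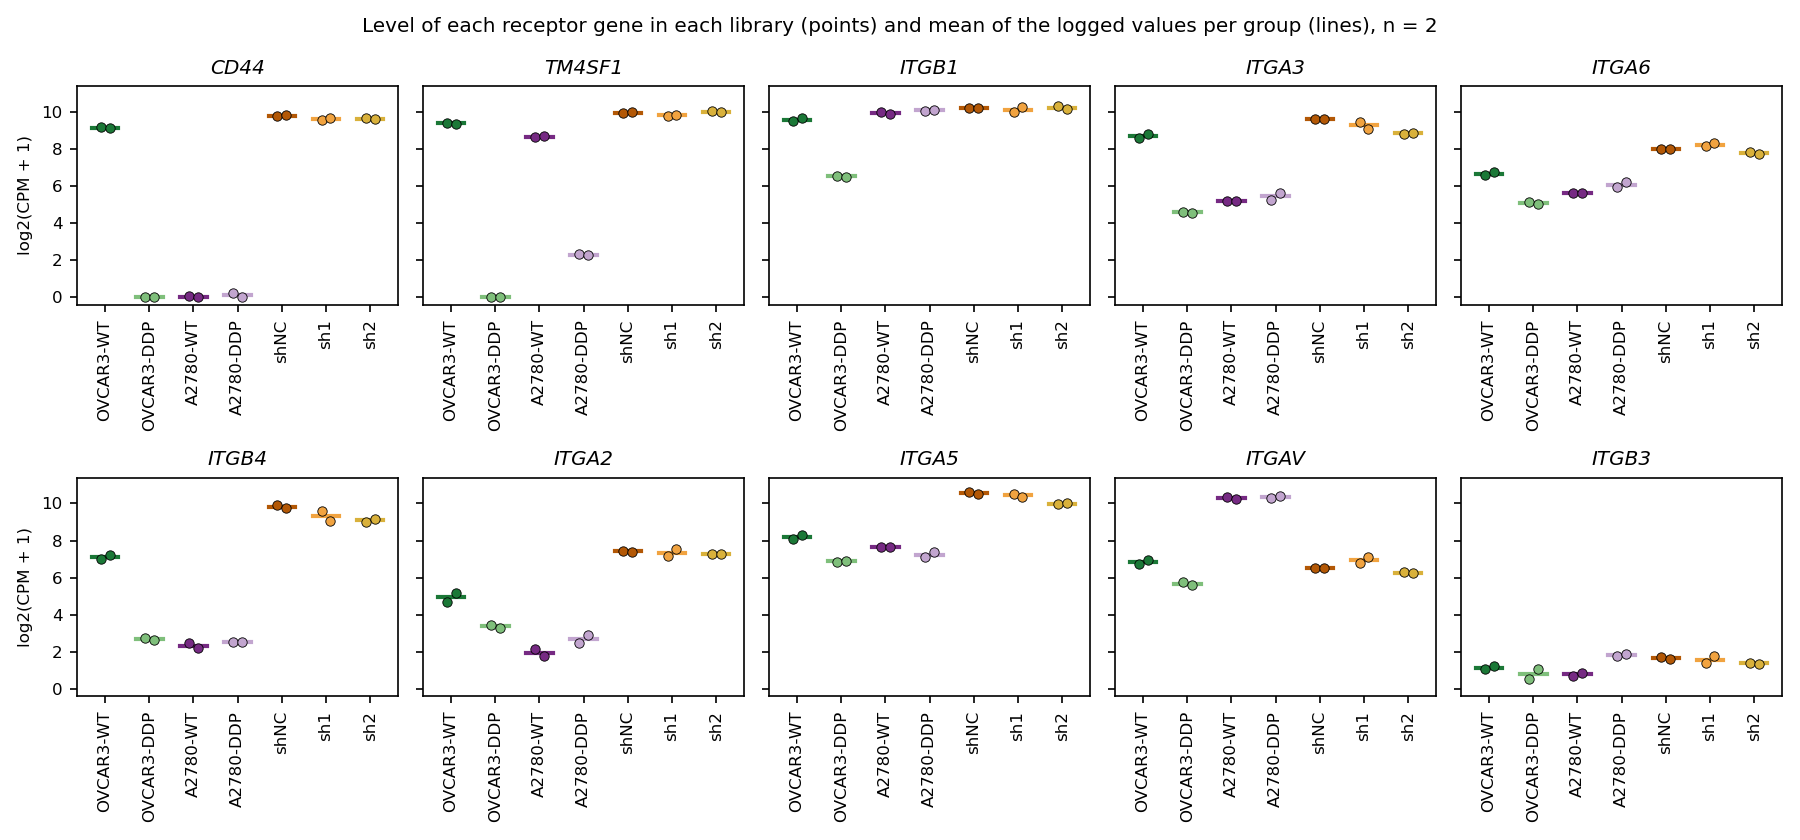
Level of each receptor gene, log2(CPM + 1), in the 14 libraries by group, with points for libraries and lines for the mean of the logged values of each group (n = 2). CD44 and TM4SF1 sit at 0 in the libraries labelled OVCAR3-DDP, CD44 is also near 0 in A2780, and ITGAV alone is highest in the A2780 groups by a wide margin.

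At the edge of this choice, 2483 genes had a mean of 100 CPM or more in parental OVCAR3, and 10 of them had 0 counts in the libraries labelled OVCAR3-DDP. TM4SF1 (665 CPM) and CD44 (564 CPM) were the highest of the 10, followed by the calcium-binding protein gene S100A6 at 477 CPM. Just outside lay TRIM29 and CAVIN3, each with 1 count. None of the integrin subunits was at 0 in any library.

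The shared beta subunit ITGB1 was strongly expressed everywhere but in 1 group. It was at 726 and 819 CPM in parental OVCAR3. Both libraries labelled OVCAR3-DDP were far lower, at 93.8 and 88.1 CPM, 8.50-fold by group means. A2780 had 1016 and 951 CPM in parental and 1078 and 1088 CPM in DDP cells. Hairpin libraries lay between 1008 and 1258 CPM, and the sh2, shNC and sh1 groups overlapped.

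The laminin receptor subunits were ordered as CD44 was among parental OVCAR3, shNC and the libraries labelled OVCAR3-DDP, with shNC highest of these. ITGA3, which pairs with ITGB1, was at 392 and 441 CPM in parental OVCAR3, 781 and 775 CPM in shNC, and 23.3 and 22.5 CPM in both libraries labelled OVCAR3-DDP. ITGA6 was at 96.6 and 106 CPM, 260 and 258 CPM, and 34.7 and 31.3 CPM in the same groups. For ITGB4, the hemidesmosome subunit, the values were 125 and 147 CPM, 949 and 858 CPM, and 5.62 and 5.25 CPM. Among the 8 integrin subunits studied here ITGB4 had the widest span over these groups, 25.1-fold lower in the libraries labelled OVCAR3-DDP than in parental OVCAR3 and 6.63-fold higher in shNC than in parental OVCAR3. In A2780 both groups held ITGB4 between 3.55 and 4.84 CPM.

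The collagen receptor subunit ITGA2 and the fibronectin receptor subunit ITGA5 were highest with a hairpin. ITGA2 was at 24.5 and 35.3 CPM in parental OVCAR3, 174 and 165 CPM in shNC, and 9.73 and 8.88 CPM in both libraries labelled OVCAR3-DDP. ITGA5 was at 271 and 316 CPM, 1556 and 1446 CPM, and 113 and 120 CPM in those groups. All hairpin libraries exceeded all others for both genes, with ITGA2 at no less than 141 CPM and ITGA5 at no less than 995 CPM.

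ITGAV, the alpha subunit of the vitronectin receptors, followed the line name on the label instead. It was at 1297 and 1191 CPM in parental A2780 and at 1256 and 1349 CPM in A2780-DDP, which overlapped. In all libraries with OVCAR3 in the label it stayed between 47.2 and 137 CPM, lowest in both libraries labelled OVCAR3-DDP (52.3 and 47.2 CPM). ITGB3, its partner in platelets and other cells, had few counts throughout, from 0.434 to 2.74 CPM. An overlapping gene, given below, may lower the counts of ITGB3. The other partners of ITGAV differed in level: ITGB5 was at 338 and 292 CPM in parental OVCAR3 and at 561 and 545 CPM in shNC, ITGB8 did not exceed 12.7 CPM in any library, and ITGB6 did not exceed 0.392 CPM.

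Counted over the members, 9 of 10 were at least 2-fold lower in the libraries labelled OVCAR3-DDP than in parental OVCAR3, beside 19.4% of 18313 genes with 1 CPM or more in either group. That contrast chose the members, so nothing is read from the count. In shNC, 4 of 10 members (ITGA2, ITGA5, ITGA6 and ITGB4) were at least 2-fold higher than in parental OVCAR3, beside 11.7% of 17039 genes, and none was 2-fold lower. These comparisons share the parental OVCAR3 libraries, and hairpin and other libraries differ in depth and mitochondrial share as given above.

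Scaled to gene length, the integrin makeup differed by line (CPM per kilobase of merged GENCODE 29 exon, which allows genes to be compared). Of the summed level of the 5 alpha subunits, ITGAV made up 80.1% in parental A2780 and 81.8% in A2780-DDP. In parental OVCAR3 the largest shares were those of ITGA3 (37.2%) and ITGA5 (33.9%). ITGA5 led in the libraries labelled OVCAR3-DDP (51.3%) as well as in shNC, sh1 and sh2 (56.7%, 55.7% and 55.1%), although its own level on this scale was 15.4 ± 0.599 in the former and 198 ± 10.3 in shNC. Relative to ITGB4, the length-scaled level of its partner ITGA6 was 0.770 in parental OVCAR3, 0.297 in shNC and 6.28 in the libraries labelled OVCAR3-DDP, while it was 12.4 in parental A2780 and 14.5 in A2780-DDP. TM4SF1 exceeded CD44 per kilobase in all groups that expressed both, with 181 ± 7.98 against 56.4 ± 1.58 in parental OVCAR3.

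**Figure D2:**
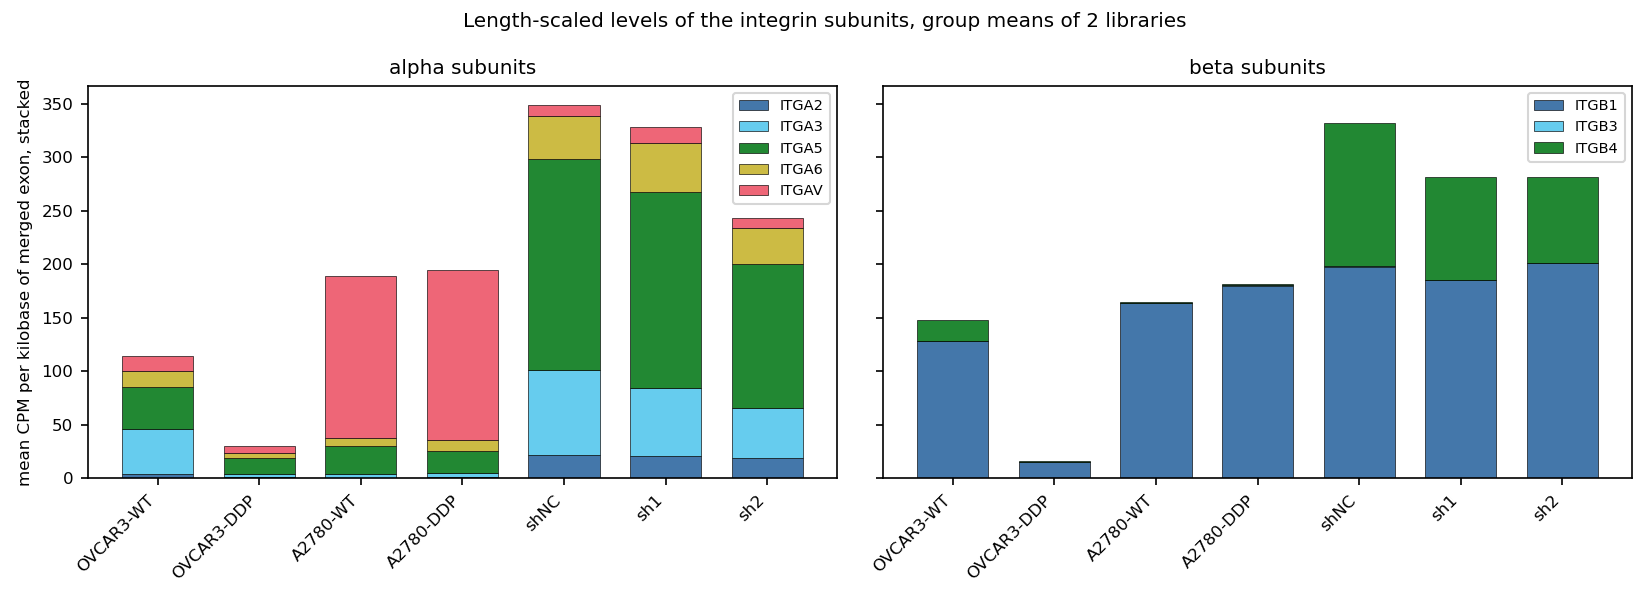
Stacked length-scaled levels (mean CPM per kilobase of merged exon, 2 libraries a group) of the 5 alpha subunits and the 3 beta subunits in the 7 groups. ITGAV fills most of the alpha bar in both A2780 groups, ITGA5 most of it in the hairpin groups, and ITGB4 adds visibly to ITGB1 in parental OVCAR3 and the hairpin groups.

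Parental and DDP-labelled A2780 were compared in a fit that also held the OVCAR3 libraries used in choosing the members, which enter its filter and its estimate of spread but not the fold change. With edgeR's quasi-likelihood test on 23031 genes in those 8 libraries, 3 members were higher in A2780-DDP than in parental A2780 and 2 were lower, beside 18.0% of all genes called higher and 17.3% called lower at an adjusted p under 0.05. The members' median log2 fold change was 0.27 and that of all genes 0.00. TM4SF1 fell by 6.67 on the log2 scale (SE 0.12, edgeR adjusted p = 5.56e-12), 102-fold by group means. ITGB3 rose (log2 1.85, SE 0.41, edgeR adjusted p = 0.00339) from 0.641 and 0.795 CPM to 2.43 and 2.74 CPM, still a low level. ITGA6 rose from 48.5 and 47.6 CPM to 61.6 and 72.5 CPM (log2 0.49, SE 0.10, edgeR adjusted p = 0.00232).

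The other calls in A2780 were smaller or less stable. ITGA2 rose from 3.40 and 2.42 CPM to 4.46 and 6.58 CPM (log2 0.94, SE 0.24, edgeR adjusted p = 0.00891). ITGA5 fell from 200 and 199 CPM to 136 and 166 CPM (log2 −0.40, SE 0.11, edgeR adjusted p = 0.0108). Without parental replicate 2 or DDP replicate 2 the ITGA2 call was lost (edgeR adjusted p = 0.0720 and 0.0672), with 3 members called in all without parental replicate 2. ITGA5 was called in 9 of 12 alternatives, not without parental replicate 1, parental replicate 2 or DDP replicate 1. CD44 entered the test only through parental OVCAR3, and its 7 counts against 1 give a ratio of 6.65 with a 95% counting interval of 0.854 to 300 (edgeR adjusted p = 0.108). It was called without DDP replicate 2 only (edgeR adjusted p = 0.0258). ITGA3, ITGAV, ITGB1 and ITGB4 had log2 fold changes of 0.28, 0.08, 0.15 and 0.26, none past the threshold.

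**Figure D3:**
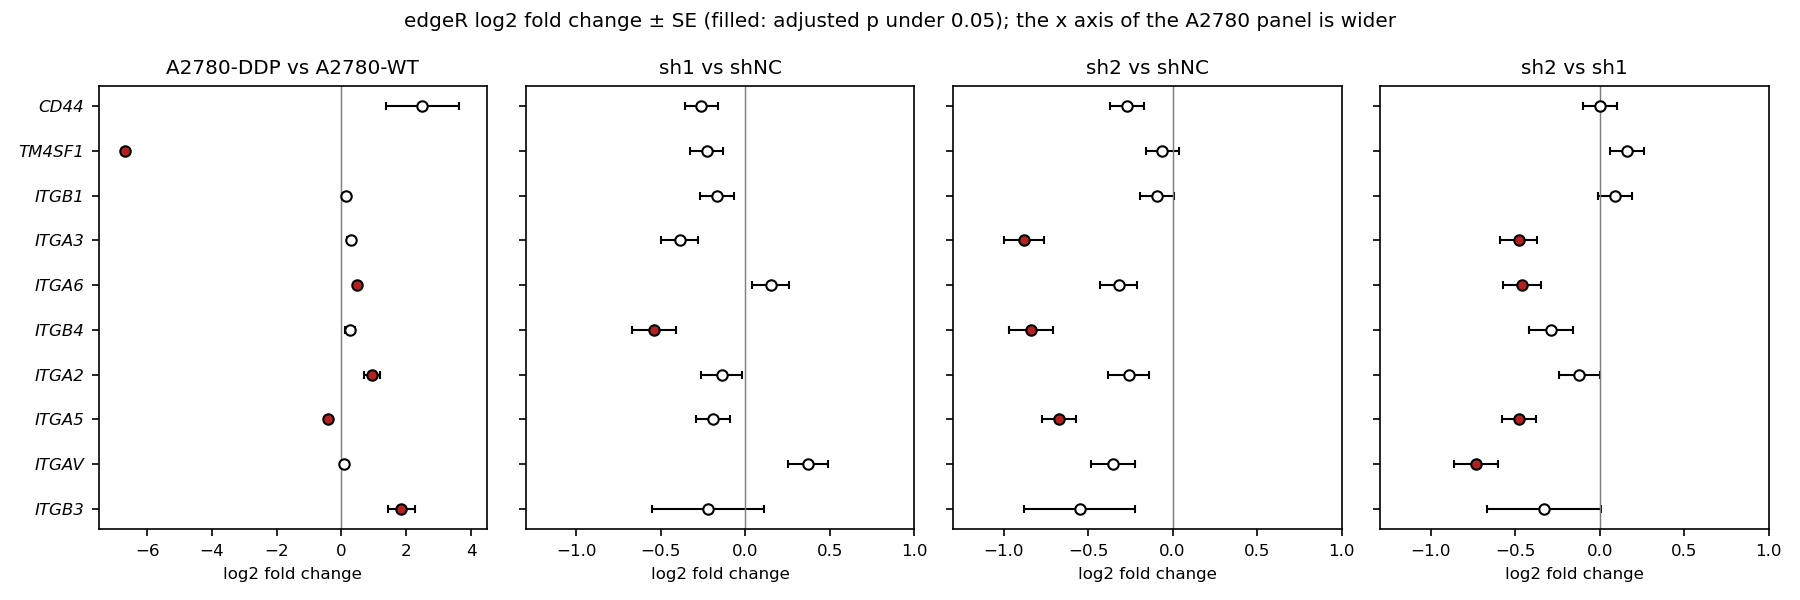
edgeR log2 fold change ± SE of the 10 receptor genes in 4 tested comparisons, filled where the adjusted p is under 0.05, with a wider x axis for A2780. TM4SF1 lies at −6.67 in A2780, and ITGA3, ITGB4 and ITGA5 lie at −0.88, −0.84 and −0.67 for sh2 against shNC.

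Genes next to TM4SF1 were low with it in A2780-DDP. Of 11 other protein-coding genes within 500 kb, 10 could be tested, and all 10 were lower in A2780-DDP with edgeR. TM4SF18, a family member 34.6 kb away, went from 27.8 and 27.6 CPM to 2 counts over both libraries, a ratio of 932 with a 95% counting interval of 258 to 7703. CP, which encodes the copper-carrying ferroxidase ceruloplasmin, lies 147 kb away and fell from a mean of 254 to 8.31 CPM (log2 −4.92, SE 0.12, edgeR adjusted p = 1.07e-11). HPS3, 195 kb away and a subunit of a complex that builds lysosome-related organelles, fell by 2.26 on the log2 scale (SE 0.11, edgeR adjusted p = 5.98e-09).

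HLTF and GYG1, 282 and 341 kb away on this side, fell by 0.92 (SE 0.09) and 0.84 (SE 0.12). Genes on the other side of TM4SF1 also fell. WWTR1, the Hippo pathway coactivator TAZ, lies 139 kb away and fell by 1.01 (SE 0.09), COMMD2 by 0.65 (SE 0.10) and RNF13 by 1.29 (SE 0.10) on the log2 scale. ANKUB1 fell by 0.85 (SE 0.24), and TM4SF4, another L6 family gene, by 4.81 (SE 1.28), from 33 counts in parental A2780 to 1 in A2780-DDP. By alternatives added after the data were seen, 8 to 10 of the neighbours were called lower. Farther out, from 0.5 to 2 Mb, 0 of 2 genes towards lower coordinates and 1 of 9 towards higher ones were called lower, from 2 to 5 Mb 1 of 3 and 5 of 6 were, and over all of chromosome 3 the counts were 176 lower and 173 higher of 829 tested. These distance classes were chosen after the values were seen.

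The same genes were given for OVCAR3 without a test. In the libraries labelled OVCAR3-DDP, where TM4SF1 had 0 counts, the mean of WWTR1 was 73.1 CPM against 46.6 CPM in parental OVCAR3, and CP was at 8.29 against 12.1 CPM. GYG1, HLTF and COMMD2 were at 133, 148 and 46.0 CPM there against 93.3, 134 and 40.2 CPM in parental OVCAR3. HPS3, RNF13 and ANKUB1 were at 47.6, 22.3 and 2.30 CPM against 60.7, 36.9 and 4.39 CPM. Over parental OVCAR3, TM4SF18 had 1 count and TM4SF4 had 4, and both had 0 over the libraries labelled OVCAR3-DDP. CPA3, not tested in A2780, had 13 and 7 counts in these groups. Around CD44 in A2780, 6 of 7 neighbours were tested, 1 (FJX1) was higher and none lower by edgeR, beside 18.0% and 17.3% of all genes. Of these neighbours, EHF had 0 counts in A2780, and PAMR1 had 0 in parental A2780 and 2 in A2780-DDP. Both passed the filter only through libraries with OVCAR3 in the label and could not be called lower. For OVCAR3, the 7 neighbours of CD44 are given by level alone, without the share of all genes that were lower. PAMR1 had 0 counts over parental OVCAR3 and 221 over the libraries labelled OVCAR3-DDP. EHF stood at 2.32 CPM in parental cells and at 0.0435 CPM there, PDHX at 77.5 and 42.2 CPM, APIP at 30.5 and 23.0 CPM, TRIM44 at 132 and 107 CPM and FJX1 at 61.9 and 61.7 CPM, and SLC1A2 was under 0.1 CPM in both.

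**Figure D4:**
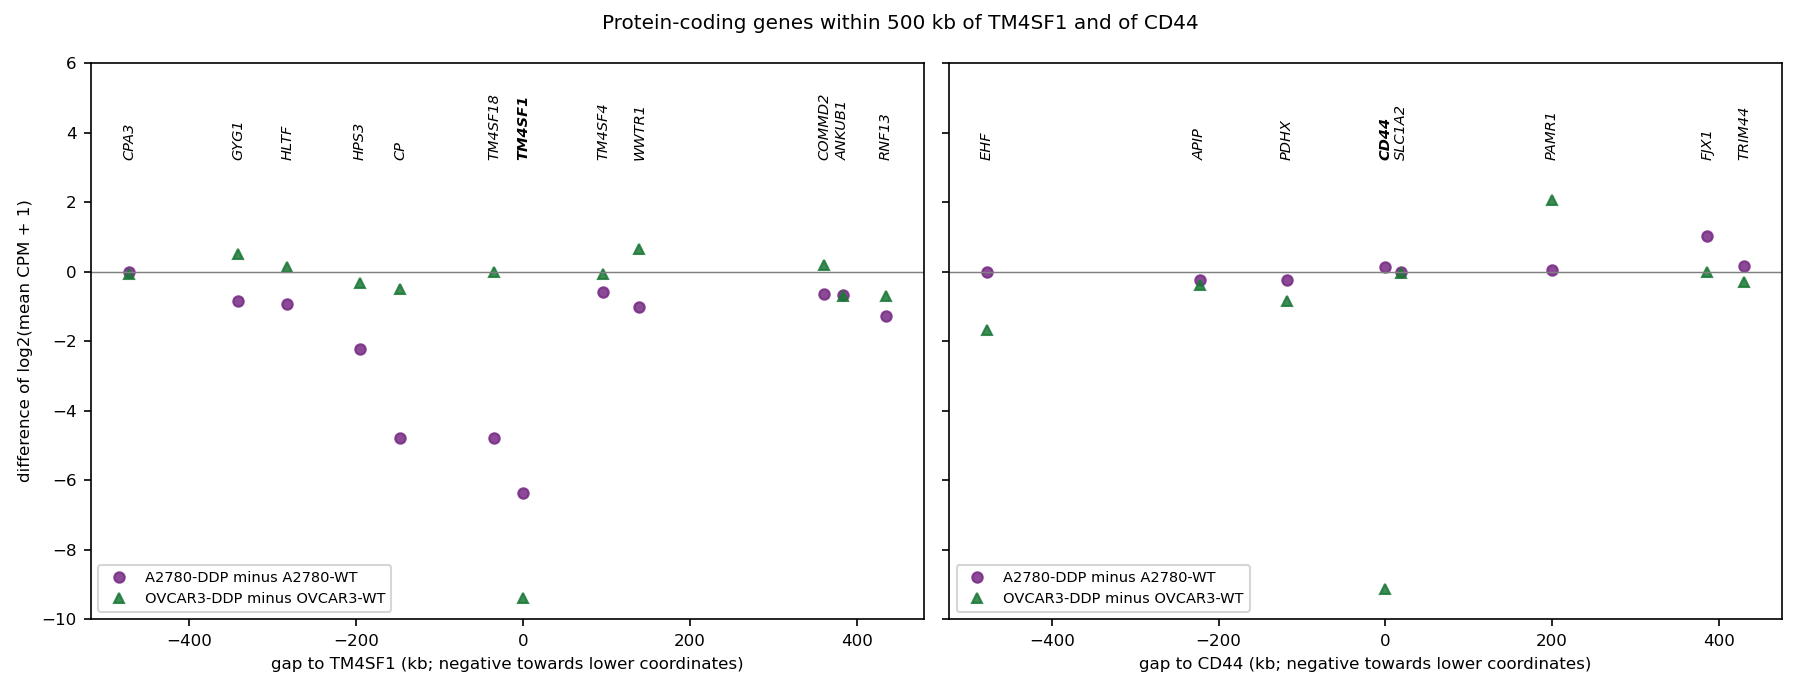
Difference of log2(mean CPM + 1) between the DDP-labelled and parental groups of each line for protein-coding genes within 500 kb of TM4SF1 and of CD44, against the gap to that gene in kb. In A2780 (circles) TM4SF1 lies far below 0 with TM4SF18 and CP, and the other tested neighbours lie below 0 by less; in OVCAR3 (triangles) TM4SF1 and CD44 lie far below 0, followed by EHF.

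The hairpins against ADAR1 moved few of these receptors, and each member called in the fit of all 6 hairpin libraries was lower than in shNC. Both hairpin contrasts use the same shNC libraries, so they are not independent. ADAR itself fell by 0.71 with sh1 (SE 0.11, edgeR adjusted p = 0.00123) and by 1.99 with sh2 (SE 0.11, edgeR adjusted p = 2.07e-09) on the log2 scale. With sh1, 1 of 10 members was called, lower, beside 1.96% of 19044 genes called higher and 1.85% lower. This was ITGB4, which fell from 949 and 858 CPM to 774 and 533 CPM (log2 −0.54, SE 0.13, edgeR adjusted p = 0.0248). The call was lost without either shNC library (edgeR adjusted p = 0.118 and 0.0555), whereas 5 members were called without either sh1 library. Without sh1 replicate 1, ITGAV was among them and higher (log2 0.50, edgeR adjusted p = 0.000112, against 0.0968 with all libraries).

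With sh2, 3 of 10 members were lower and none higher, beside 7.23% of genes called higher and 7.04% lower. ITGA3 fell from 781 and 775 CPM to 449 and 465 CPM (log2 −0.88, SE 0.12, edgeR adjusted p = 0.000160). ITGB4 fell to 520 and 569 CPM (log2 −0.84, SE 0.13, edgeR adjusted p = 0.000654) and ITGA5 from 1556 and 1446 CPM to 995 and 1036 CPM (log2 −0.67, SE 0.10, edgeR adjusted p = 0.000320). None of the sh2 libraries overlapped shNC for these genes, and each call held in all 11 alternatives tried. The alternatives called up to 7 members, all lower. In the fit of all 14 libraries, TMM scaling set the fold change of every gene 0.13 lower for sh2 against shNC than plain CPM does.

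CD44 and TM4SF1 moved little under the hairpins. The log2 fold change of CD44 was −0.26 with sh1 and −0.27 with sh2, neither past the threshold (edgeR adjusted p = 0.141 and 0.0760), and that of TM4SF1 was −0.23 and −0.06. For sh1, CD44 was called lower without either sh1 library (edgeR adjusted p = 0.0426 and 0.00720). Over the mean of both hairpins, 4 members were lower and none higher, beside 5.94% of genes called higher and 5.98% lower: ITGB4 (log2 −0.69), ITGA3 (−0.63), ITGA5 (−0.43) and CD44 (−0.26, SE 0.08, edgeR adjusted p = 0.0466). The CD44 call was lost with a replicate block (edgeR adjusted p = 0.0733), in a fit of all 14 libraries (edgeR adjusted p = 0.0547) and without either shNC or either sh2 library (edgeR adjusted p = 0.179 to 0.389), and the ITGA5 call was lost without shNC replicate 1 (edgeR adjusted p = 0.0605). The count was 2 without shNC replicate 1 and 7 without sh1 replicate 2. ITGAV was at 90.1 and 90.7 CPM in shNC, 110 and 137 CPM in sh1, and 77.3 and 74.9 CPM in sh2, on opposite sides of the control.

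Compared directly, sh2 lay below sh1 for 4 members and above it for none, beside 0.667% of genes called higher and 1.25% lower. They were ITGAV (log2 −0.73, SE 0.13, edgeR adjusted p = 0.00404), ITGA5 (−0.48, SE 0.10), ITGA6 (−0.46, SE 0.11) and ITGA3 (−0.48, SE 0.11). ITGA6 was at 287 and 318 CPM in sh1 and at 232 and 215 CPM in sh2, with the shNC libraries between them. Without either sh2 library none of the 10 members was called, without sh1 replicate 2 there were 6 calls, and the sh1 libraries differed more from each other than those of shNC or sh2 (chi-square per gene 21.1, against 5.01 and 4.87).

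Ligands and partners of the integrins were read from lists of related genes. The counts in these lists are to be read against the share of all genes called, 18.0% higher and 17.3% lower in A2780-DDP, 7.23% and 7.04% with sh2, and 1.96% and 1.85% with sh1, and nothing is called particular to a list. Some listed genes had 0 counts in all A2780 libraries, among them NID1 and TGFB1I1. These passed the filter only through libraries with OVCAR3 in the label and could not be called in A2780. Of 26 matrix ligands, 5 rose and 10 fell in A2780-DDP (median log2 0.11), the rises at about the share of all genes. Thrombospondin 1, THBS1, went from 0.385 and 0.917 CPM to 30.9 and 36.0 CPM (log2 5.67), and the collagen chain COL1A2 (log2 −2.95) and the matricellular protein CCN2 (log2 −2.02) fell. With sh2, 9 of 24 tested ligands fell and 2 rose (median −0.24), among them the laminin chains LAMB2 (log2 −0.95) and LAMA5 (−0.92), while THBS1 rose (0.71). With sh1, LAMC1, another laminin chain, was the only ligand called (log2 −0.98). The laminin chain LAMB3 stood at 243 and 266 CPM in parental OVCAR3, 841 and 839 CPM in shNC, and 1.91 and 1.19 CPM in both libraries labelled OVCAR3-DDP. Fibronectin, FN1, stood at 187 and 311 CPM, 2891 and 2632 CPM, and 86.2 and 87.2 CPM in the same order.

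Other integrin subunits were called in 5 of 17 cases in A2780-DDP, 2 higher and 3 lower, beside 18.0% and 17.3% of all genes. Among the 17, ITGA4 and ITGA8 had 0 counts in A2780, and ITGAL had 1 in parental and 3 in DDP cells. They passed the filter only through the libraries labelled OVCAR3-DDP, so nothing is read from the count. ITGA2B, the alpha partner of ITGB3 on platelets, rose from 0.513 and 0.52 CPM to 7.01 and 6.98 CPM (log2 3.76), and ITGB8 rose from 0.833 and 1.01 CPM (log2 3.34). The platelet genes GP9 and PF4 were at 0 in that group. With both sh1 and sh2, ITGB5 fell (log2 −0.75 and −0.61). Outside the tests, the leukocyte integrin subunit ITGA4 had 9 counts over parental OVCAR3 and 1088 over the libraries labelled OVCAR3-DDP, where the defining leukocyte markers PTPRC and CD3E were at 0 and the 6 leukocyte markers summed to 8.22 to 8.36 CPM (0.916 to 0.948 CPM in parental OVCAR3).

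Among 26 genes of the cytoplasmic adhesion machinery, 4 rose and 8 fell in A2780-DDP (median log2 −0.07), beside 18.0% and 17.3% of all genes. The adaptor LIMS1, which binds integrin-linked kinase, rose (log2 1.20), and paxillin, PXN, fell (−0.93). With sh2, 6 of the 26 fell and none rose, beside 7.04% and 7.23% of all genes, including filamin A, FLNA (log2 −0.63), and talin 1, TLN1 (−0.49), which bind integrin tails. With sh1 the only call was RSU1 (log2 −0.73), a partner of the LIMS1 complex.

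The L6 and tetraspanin list gave 1 higher and 4 lower of 10 tested in A2780-DDP (median log2 −0.24), beside 18.0% and 17.3% of all genes. TM4SF18 is given above, CD82 fell (log2 −1.39) and CD9 rose (0.61). Of the hyaluronan and CD44 partners, 3 rose, about the share of all genes, and 6 fell of 18: the splicing regulator ESRP1, which acts on CD44 exons, fell (log2 −4.99), as did the hyaluronidase CEMIP2 (−3.02) and the CD44 ligand osteopontin, SPP1 (−1.52). With sh2, HYAL2, a hyaluronidase, fell (log2 −0.96) and HMMR, a hyaluronan-binding protein active in mitosis, rose (0.79), within 2 higher and 4 lower of 17. Of 5 tested hemidesmosome partners, PLEC and CD151 fell with sh2 (log2 −0.42 for both), and none was called with sh1.

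The genes nearest to CD44 in pattern were sought by Pearson r of log2(CPM + 1) over the 7 group means among 11768 protein-coding genes. The nearest were SPINK6, TGFBI, PLA2R1, OCIAD2 and S100A6, each with r of 1.000 after rounding, and each had a group mean of at most 0.284 CPM in A2780-WT, A2780-DDP and the libraries labelled OVCAR3-DDP. For TM4SF1 they were DPYD (r = 0.991), CASP4 (0.989), TLR6 (0.986), EPCAM (0.985) and IFI16 (0.985). DPYD, for example, had means of 27.1, 0.203, 15.8 and 2.07 CPM in parental OVCAR3, the libraries labelled OVCAR3-DDP, parental A2780 and A2780-DDP. Within the members CD44 was nearest to ITGA3 (r = 0.99) and ITGB4 (0.98) and lay opposite to ITGAV (−0.58). The 7 means share libraries and scaling, so these values describe the groups only.

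Genes that overlap a member limit some counts, since the strand setting is not given. CD44-AS1, on the opposite strand with 84 exon bases shared with CD44, was at a mean of 42.8 CPM in parental OVCAR3, 78.8 CPM in shNC and 0 in the libraries labelled OVCAR3-DDP. TM4SF1-AS1 shares 88 exon bases with TM4SF1 and was at 5.11, 12.6 and 0 CPM in the same groups. An antisense gene with the symbol GPR84-AS1 (ENSG00000258086.1) shares 48 exon bases with ITGA5 and was at 11.6, 81.1 and 4.80 CPM. Without strand, reads of a member and its antisense partner cannot be told apart, so these antisense levels may hold reads of the member. Reads on bases that both share are ambiguous if counting ignored strand. ITGB3 overlaps a protein-coding gene on its own strand, ENSG00000259753.1, which was at 0 in all groups. They share 2266 of the 4394 merged exon bases of ITGB3. Reads on those bases are ambiguous whatever the strand setting, so the level of ITGB3 may be undercounted in every library. Splice forms of CD44 and other members were not analysed here.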

How the data were processed

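HTSeq gene counts, 1 file per library, were used as deposited by the authors. Per the submitters' processing notes, FastQC 0.11.9, STAR 2.7.8a, GRCh38.p13, SAMtools and HTSeq 2.0.3 were used. Not given in the sources used here are the annotation release, the strand setting and whether reads were paired. Summary lines were left out of library sizes: reads on no gene were 48.7% to 50.0% and ambiguous reads 2.09% to 2.48% of all reads. Symbols were found for 62639 and coordinates in GENCODE 29 for 58318 of 62757 genes.

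Counts were tested with edgeR 4.0.16 (R 4.3.3): TMM, filterByExpr at a minimum count of 10, quasi-likelihood F-test, Benjamini-Hochberg adjustment over all genes at 0.05, and SEs derived from the F statistic. The 8 parental and DDP libraries formed 1 fit (23031 genes) and the 6 hairpin libraries another (19044). All 10 members passed the filter. Tests were tried on simulated data first.

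Alternatives tried were the Wald test of DESeq2 1.42.0, its size factors in edgeR, upper-quartile scaling, no filter, fits of only the groups compared or of all 14 libraries, a block on the replicate number and each library left out in turn. Replicates differed by 3.88 to 31.5 in chi-square per gene (genes with a pooled count of 20 or more), so none was a copy. The members and lists were chosen with earlier results of these data known. The text names all members, ADAR, neighbours within 500 kb, genes overlapping a member and the 5 nearest patterns to CD44 and TM4SF1. It also names part of the 4 called genes with the largest change per list and comparison. TRIM29, CAVIN3, KRT7, WT1, CDH1, ITGA4, ITGA8, ITGAL, ITGB6, NID1, TGFB1I1 and leukocyte and platelet markers were named after their values were seen. Python 3.11.15 with numpy 2.4.6, pandas 2.3.3, scipy 1.17.1 and matplotlib 3.10.9 served the rest.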

Additional observations from a re-analysis of the deposited data

Results flagged for a closer look

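The effects of the hairpins sh1 and sh2, both measured against shNC, differed for 4 integrin alpha subunits by a direct test in the hairpin fit. The log2 difference, sh2 minus sh1, was −0.73 for ITGAV (SE 0.13, edgeR adjusted p = 0.00404), −0.48 for ITGA5 (SE 0.10, edgeR adjusted p = 0.0136), −0.46 for ITGA6 (SE 0.11, edgeR adjusted p = 0.0284) and −0.48 for ITGA3 (SE 0.11, edgeR adjusted p = 0.0320). In both sh2 libraries each of these genes was below both sh1 libraries. ADAR was lower with sh2 than with sh1 as well (log2 −1.27), and the part of that difference in the integrin result was not tested.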

How the results depend on the processing

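Of the members called, A2780-DDP gave 5, and 3 to 5 when each library was left out in turn. For sh1 against shNC, 1 member became 2 with no filter and with DESeq2's Wald test, and 0 to 5 when a library was left out. For sh2 against shNC, 3 became 6 with upper-quartile scaling and with DESeq2's Wald test, 7 with only the groups compared and 5 with all 14 libraries, and stayed 3 when a library was left out. The mean of the hairpins gave 4, and 2 to 7 when a library was left out, and sh2 against sh1 gave 4, then 2 with only the groups compared and 0 to 6. Over all genes, sh1 called 725, 445 with only the groups compared and 89 to 4512 when a library was left out; sh2 called 2717, 5874 and 303 to 1386; the mean of both called 2270 and 327 to 6318. For sh2 against sh1, 365 became 690 with no filter, 642 with DESeq2's Wald test, 192 with only the groups compared and 58 to 4286 when a library was left out. The cause was not tested.

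Sign changes occurred in log2 values that were not called with all libraries: ITGA2 (−0.33 to 0.01 over left-out libraries) and ITGB3 (−0.53 to 0.02) for sh1, ITGAV for the mean of the hairpins (−0.01 with upper-quartile scaling and with all 14 libraries, −0.07 to 0.07 over left-out libraries), and for sh2 against sh1 CD44 (0.00 with no filter and with all 14 libraries, 0.01 with only the groups compared, −0.05 to 0.06), ITGA2 (−0.28 to 0.08), ITGB1 (−0.03 to 0.23) and ITGB4 (−0.29 with all libraries, −0.54 to 0.02). Of these, ITGA2 for sh1 and, for sh2 against sh1, ITGB1 and ITGB4 were called without sh1 replicate 2 (edgeR adjusted p = 0.0129, 0.0396 and 1.07e-05). Deviations of same-numbered libraries correlated at −0.112 in A2780, at −0.0219 between parental OVCAR3 and the libraries labelled OVCAR3-DDP, and at 0.0144, 0.0189 and −0.0711 among hairpin groups. No large shared effect of the replicate number was thus seen. With 2 libraries a group, these values cannot tell whether a number marks a shared culture or day. With the replicate block 5, 1, 3, 3 and 4 members were called in the 5 comparisons in the order above, and only the call of CD44 changed. The pairing crossed in A2780, added after the data were seen, also called 5. TMM instead of total counts moved the 64 member levels of 1 CPM or more by 0.915 to 1.13 times. Depth limits CD44 in A2780 and ITGB3 throughout, and the exon bases shared with another gene also limit ITGB3.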
